A study of Mus musculus with 40 samples.

Results

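The interaction of head impact and memantine asks whether the change in gene expression after impact differs between mice given the drug and mice given saline. It was computed as the HF-HI minus sham difference in memantine mice, minus the HF-HI minus sham difference in saline mice, and it used all 40 cortical RNA-seq libraries of the series. A negative value means that the change after impact was more negative, or less positive, under memantine than under saline. It was estimated for all 6831 transcripts of the table and for all 5875 gene sums, in which the counts of all transcripts of a gene were added. HF-HI stands for high-frequency head impact, a mouse model of repeated mild blows to the closed head. The mice were males aged 12 weeks, labelled C57BL/6 and named C57Bl/6J in the study's methods. By the labels each of the 4 groups held 10 of them: saline with sham handling, saline with HF-HI, memantine with sham handling and memantine with HF-HI. The design text of the series gives 4 samples to a group in place of 10. The labels and the table both hold 10, and the errors and p-values here treat them as 10 separate samples. Memantine or saline was injected 1 h before each session, and cortex was taken 24 h after the injury. Every animal was therefore injected and handled, and the interaction concerns a drug that was present around each session. The samples are whole dissected cortex, so fewer cells of a type and less RNA per cell cannot be told apart.

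Memantine is an uncompetitive blocker of the NMDA receptor, a glutamate-gated channel through which calcium enters neurons during strong synaptic activity. Calcium entry activates kinases that switch on immediate early genes within minutes, and many of the products are transcription factors or feedback inhibitors of the MAP kinase pathway. Cortical cells also run the circadian clock, in which the BMAL1 protein (encoded by Arntl) and CLOCK activate the Per and Cry repressors and output factors such as Dbp, Tef and the REV-ERB receptors. These receptors and programs were the gene groups examined for the interaction.

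The libraries held 13322404 to 17529644 reads over the listed transcripts, recovered from the deposited values, and the lowest mean normalised count of a transcript was 549. Cortical neuron markers were present in every library, where the summed normalised count of the 13 measured of 14 ranged from 47998 to 77633. Saline HF-HI replicate 1 and memantine HF-HI replicate 1 stood apart in immediate early genes, and sham libraries numbered 1 to 5 differed from those numbered 6 to 10. Low values in number 1 were not confined to HF-HI. Of 21 measured immediate early genes, number 1 was the lowest of its group in 13 in saline HF-HI and 12 in memantine HF-HI. In memantine sham it was the lowest in 15, and in saline sham in 4. The numbers are those that end the sample titles, and what they stand for was not given in the sources used here. Values without the HF-HI libraries numbered 1 are given beside the named clock and immediate early genes whose call turned on them.

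No gene had an interaction that passed the adjusted threshold. At an adjusted p under 0.1 (limma, Benjamini-Hochberg), 0 of 5875 gene sums and 0 of 6831 transcripts were called (0% each), and the smallest adjusted p was 0.999 for both. At an unadjusted p under 0.05, 211 gene sums were called (3.59%), fewer than the 293.75 that this threshold would give with no effect anywhere. Of these, 107 were higher under memantine (1.82% of all gene sums) and 104 were lower (1.77%). Among transcripts 255 were called (3.73%), 131 higher and 124 lower. The 95% interval of a gene sum's interaction reached a median of 0.12 log2 units (1.09-fold) to either side of the estimate, and for 79.5% of gene sums it reached less than 0.2. An interaction carries the noise of all 4 groups, and its median standard error was 0.0605 against 0.0427 for the impact change in saline mice. Leaving out saline HF-HI replicate 1 raised the number of gene sums at p under 0.05 to 332, and weighting libraries by their residual variance raised it to 384, with 0 at the adjusted threshold in both cases. All p-values of single genes below are unadjusted and two-sided.

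The gene sums called at p under 0.05 mostly had impact differences of opposite sign in the 2 drug arms. In 185 of the 211 (87.7%) the impact change had opposite signs in saline and memantine mice, against 39.9% of all gene sums. Because the interaction is the difference of these 2 changes, a high share is built into the selection and is given as a description. The change in saline mice alone reached p under 0.05 in 114 of the 211, the change in memantine mice alone in 42, both in 3 and neither in 52. For all gene sums the corresponding calls were 10.7% for impact in saline mice, 4.37% for impact in memantine mice and 7.9% for memantine against saline in sham mice. Saline sham was the group whose mean lay farthest from the mean of the other 3 in 90 of the 211 (42.7%, against 27.8% of all gene sums), and memantine HF-HI was that group in 27 (12.8%, against 16.5%).

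**Figure D1:**
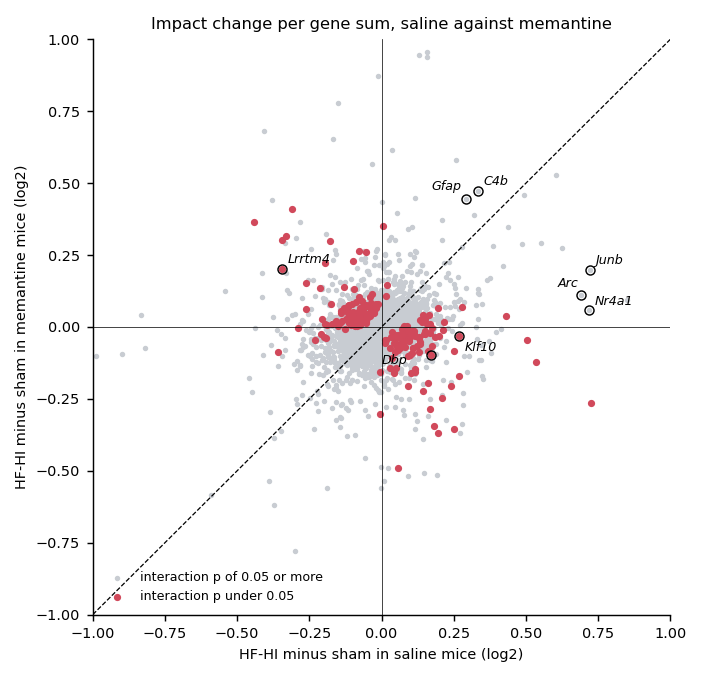
Each point is a gene sum, with its HF-HI minus sham difference in saline mice on the horizontal axis and in memantine mice on the vertical axis, both in log2 units, and the dashed line marks equal change. The 211 gene sums with an interaction p under 0.05 are red and lie off the line, mostly in the 2 quadrants of opposite sign, and 39 gene sums outside the axes are not drawn.

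Of 19 measured clock genes, 6 had an interaction at p under 0.05 (over all gene sums, 3.59%), and 5 of the 6 were lower under memantine. Of 9 measured output genes 3 were lower and 8 were negative, with a median interaction of -0.13, and of 10 core clock genes 2 were lower and 1 was higher, with a median of -0.089. The median over all gene sums was -0.0016. For memantine against saline in sham mice, 4 of the 9 output genes and 4 of the 10 core genes had p under 0.05 (over all gene sums, 7.9%). Clock transcripts change with the time of day. That time was not given for the groups in the sources used here, so a difference in it cannot be told apart from the interaction. Dbp, an output activator that follows BMAL1 closely, lies at chr7:45705100-45710203 (GRCm38). Its normalised counts ran from 868 to 1132 in saline sham libraries (median 1011), from 817 to 1298 in saline HF-HI libraries (median 1161), from 1176 to 1597 in memantine sham libraries (median 1391) and from 1142 to 1414 in memantine HF-HI libraries (median 1325). Saline sham libraries were the lowest as a group, the 2 sham groups did not overlap, and the sham and HF-HI groups overlapped within each drug arm. The impact change of Dbp was 0.17 in saline mice and -0.098 in memantine mice, so its interaction was -0.27 ± 0.0927 (SE, p = 0.00617), with a permutation p of 0.00612.

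The other called output genes were Nr1d2 and Tef, both lower. Tef and Dbp encode related PAR-type leucine zipper factors, and Nr1d2 encodes the repressor REV-ERB beta. Nr1d2 spanned 3376 to 4068 (median 3898) in saline sham, 3721 to 4487 (median 4087) in saline HF-HI, 4109 to 4626 (median 4275) in memantine sham and 3815 to 4511 (median 4303) in memantine HF-HI, and its interaction was -0.13 ± 0.0482 (SE, p = 0.0117). The Tef sum spanned 5887 to 7235 (median 6475) in saline sham, 6653 to 7419.5 (median 6880.1) in saline HF-HI, 6985 to 8326 (median 7525) in memantine sham and 6449.9 to 8354 (median 7638) in memantine HF-HI, with an interaction of -0.13 ± 0.0575 (SE, p = 0.0246). In both genes memantine sham was above saline sham in the median, and HF-HI was higher than sham by the median in saline mice, with a smaller difference between medians, of the same sign, in memantine mice. The fitted impact changes, which rest on means of log2 values, had opposite signs in the 2 arms. They were 0.0999 in saline mice and -0.0277 in memantine mice for Nr1d2. For Tef they were 0.0993 in saline mice and -0.0352 in memantine mice. The 2 sham groups overlapped in Tef and did not in Nr1d2. Hlf, the third PAR-type factor, had an interaction of -0.15 (p = 0.0714), which did not pass. It was -0.18 (p = 0.0248) without saline HF-HI replicate 1 and -0.13 (p = 0.122) without memantine HF-HI replicate 1.

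Among the core clock genes, the repressors Per3 and Cry2 were lower and the activator Arntl was higher. Per3 spanned 872 to 1499 (median 1197) in saline sham, 1137 to 1552 (median 1285) in saline HF-HI, 1274 to 1668 (median 1502) in memantine sham and 923 to 1623 (median 1266) in memantine HF-HI, and its interaction was -0.30 ± 0.129 (SE, p = 0.0252). Its median was highest in memantine sham libraries. Cry2 had medians of 2449, 2695, 2694 and 2667 in saline (sham, HF-HI) and memantine (sham, HF-HI) libraries, and an interaction of -0.14 ± 0.0661 (SE, p = 0.0418). The call of Cry2 was lost in 19 of the 40 fits that leave out 1 library, among them -0.11 (p = 0.0786) without memantine HF-HI replicate 1, and in either set of library numbers, while without saline HF-HI replicate 1 it was -0.17 (p = 0.00701). Arntl, whose transcript peaks in antiphase to Dbp and Per genes in most tissues, had medians of 823, 774, 717 and 763 in the same order, and its interaction was 0.17 ± 0.0773 (SE, p = 0.0348), a call lost in 9 of the 40 fits. Per1 at -0.30 (p = 0.160), Per2 at -0.17 (p = 0.289) and Nr1d1 at -0.16 (p = 0.256) did not pass. Without saline HF-HI replicate 1, Per1 was -0.40 (p = 0.0461) and Per2 -0.24 (p = 0.102), and without memantine HF-HI replicate 1 they were -0.21 (p = 0.290) and -0.10 (p = 0.485).

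**Figure D2:**
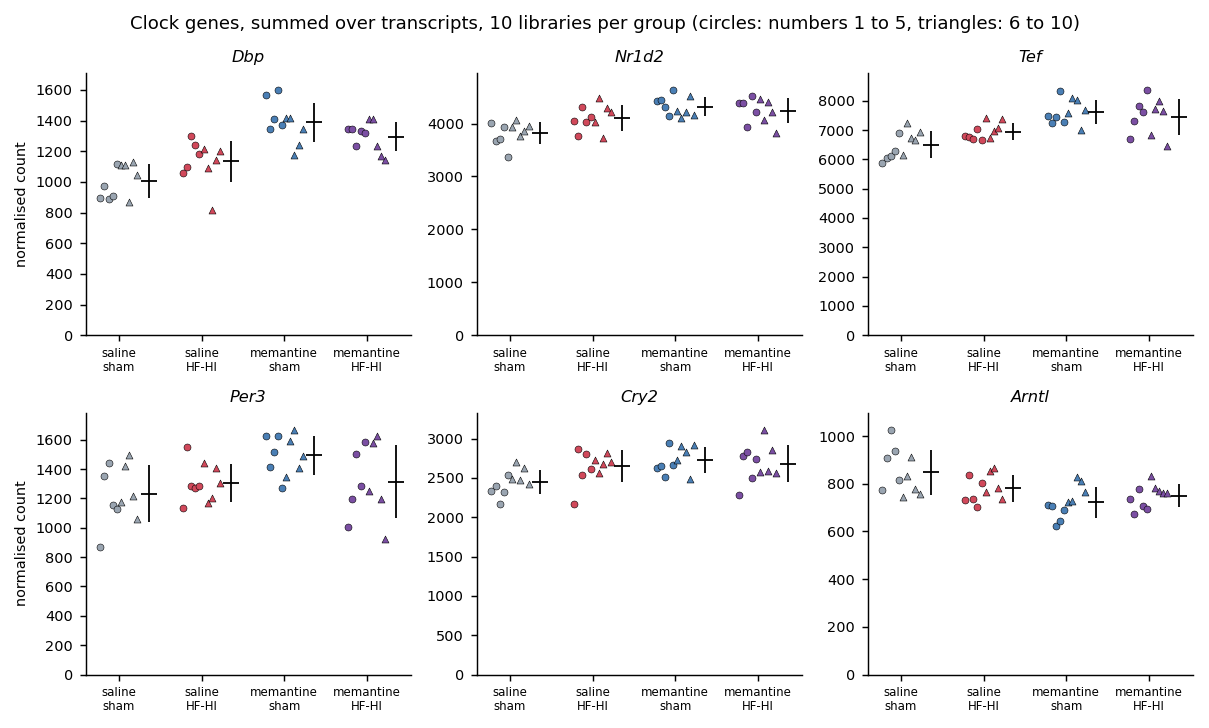
Normalised counts of 6 clock genes, summed over transcripts, in each library of the 4 groups, with circles for libraries numbered 1 to 5, triangles for 6 to 10 and the mean with SD beside each group. Dbp, Nr1d2, Tef, Per3 and Cry2 have their lowest group mean in saline sham and Arntl has its highest there.

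Clock genes were also estimated within the 2 sets of library numbers. The interaction of Dbp was -0.44 (p = 0.000241) in libraries numbered 1 to 5 and -0.094 (p = 0.523) in libraries numbered 6 to 10, and that of Arntl was 0.31 (p = 0.00639) in libraries numbered 1 to 5 and 0.028 (p = 0.751) in libraries numbered 6 to 10. Among the 19 clock genes, 3 passed in the first set (over all gene sums, 2.35%) and 0 in the second (7.25%), and 16 were negative in each. The difference between the sets was tested in 1 fit over all 40 libraries, and it had a p of 0.0590 for Dbp and 0.0401 for Arntl. It reached p under 0.05 in 1 of the 19, Arntl, while over all gene sums 5.41% reached p under 0.05 in that test and 0 reached the adjusted threshold. Without saline HF-HI replicate 1, 7 of the 19 passed (over all gene sums, 5.65%), all lower, and Arntl was 0.16 (p = 0.0510).

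Promoter windows from RefSeq (build GRCm38.p6, 250 bases before to 50 after an annotated start) were available for 8 of the 9 clock and immediate early genes called at p under 0.05, and not for Klf10. They were searched on both strands for the E-box CACGTG bound by BMAL1 and CLOCK, the D-box forms TTATGTAA and TTACGTAA bound by PAR-type factors, the ROR core motif AGGTCA and the cyclic AMP response element TGACGTCA. Of 32851 windows in the whole table, 7.15% held the E-box, 0.938% and 0.119% the D-box forms, 16.3% the ROR core motif and 1.79% the cyclic AMP response element. Shown here are Per3, which held 2 D-boxes, Nr1d2, which held a ROR core motif, and the windows of both RefSeq starts of Tef, each with an E-box. Matches are in capitals. Not shown are Arntl, with a ROR core motif in 1 of 2 windows, and Spry2, also with a ROR core motif. Dbp, Cry2 and Dusp14 had none of these letters in the window. A match is a description of the letters, and binding was not measured.
Per3 (chr4:151044616-151044915, minus strand): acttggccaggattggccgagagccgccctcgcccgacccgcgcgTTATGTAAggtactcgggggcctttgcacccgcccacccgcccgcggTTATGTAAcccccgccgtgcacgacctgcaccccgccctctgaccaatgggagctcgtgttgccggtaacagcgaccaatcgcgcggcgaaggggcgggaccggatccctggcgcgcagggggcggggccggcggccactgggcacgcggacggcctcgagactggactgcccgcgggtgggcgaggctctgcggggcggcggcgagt
Nr1d2 (chr14:18239057-18239356, minus strand): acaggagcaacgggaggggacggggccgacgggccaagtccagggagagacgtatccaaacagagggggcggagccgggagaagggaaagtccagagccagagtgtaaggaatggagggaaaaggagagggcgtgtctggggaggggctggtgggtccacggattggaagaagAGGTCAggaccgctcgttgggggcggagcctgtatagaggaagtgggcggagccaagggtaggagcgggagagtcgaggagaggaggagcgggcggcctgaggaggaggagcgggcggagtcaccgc
Tef, upstream start (chr15:81802423-81802722, plus strand): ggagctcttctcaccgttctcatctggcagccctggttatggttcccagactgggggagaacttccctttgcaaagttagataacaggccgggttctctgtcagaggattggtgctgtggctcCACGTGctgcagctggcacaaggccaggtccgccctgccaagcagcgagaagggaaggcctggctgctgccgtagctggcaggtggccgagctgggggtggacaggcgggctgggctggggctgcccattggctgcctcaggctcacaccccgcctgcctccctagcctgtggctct
Tef, downstream start (chr15:81811164-81811463, plus strand): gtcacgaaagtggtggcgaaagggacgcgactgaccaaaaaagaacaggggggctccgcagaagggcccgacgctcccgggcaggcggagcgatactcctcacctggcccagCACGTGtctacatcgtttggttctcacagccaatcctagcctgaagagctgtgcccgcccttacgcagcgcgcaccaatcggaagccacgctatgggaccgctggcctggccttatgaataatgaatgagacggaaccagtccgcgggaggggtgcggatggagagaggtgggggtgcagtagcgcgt

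Immediate early genes leaned the same way as the clock output genes, and 3 of 21 measured passed at p under 0.05 (over all gene sums, 3.59%), all lower. All 7 measured transcription factors (of 20 listed) and 12 of 14 measured effectors (of 25 listed) had negative interactions, with medians of -0.20 and -0.092. The other listed genes were not measured here. In all 19 of 21 were negative, against 51.0% of all gene sums. Members of this group share activity-dependent control, so they are not independent of each other. Klf10, a zinc finger repressor at chr15:38291464-38300711, spanned 495 to 595 (median 533) in saline sham, 549 to 884 (median 641) in saline HF-HI, 395 to 683 (median 579) in memantine sham and 460.2 to 637 (median 551) in memantine HF-HI. Its impact change was 0.27 in saline mice and -0.032 in memantine mice, and its interaction was -0.30 ± 0.110 (SE, p = 0.00921).

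The other 2 called genes restrain MAP kinase signalling. Spry2, a feedback inhibitor of growth factor receptors at chr14:105891947-105896819, spanned 748 to 907 (median 797) in saline sham, 758 to 945 (median 884) in saline HF-HI, 748 to 945 (median 845) in memantine sham and 695 to 839.5 (median 792) in memantine HF-HI. Its impact change was 0.11 in saline mice and -0.092 in memantine mice, giving -0.20 ± 0.0603 (SE, p = 0.00213) and a permutation p of 0.00170. Dusp14, a MAP kinase phosphatase, had medians of 627, 732, 709.8 and 676 in saline (sham, HF-HI) and memantine (sham, HF-HI) libraries, with -0.24 ± 0.107 (SE, p = 0.0313). The call of Dusp14 was lost in 7 of the 40 fits that leave out 1 library, among them -0.21 (p = 0.0566) without memantine HF-HI replicate 1. All 4 groups overlapped in each of these genes. Dusp6, which dephosphorylates ERK, had an interaction of -0.27 (p = 0.0578) and Ier5 one of -0.16 (p = 0.0784), neither of which passed. Without saline HF-HI replicate 1 they were -0.33 (p = 0.0122) and -0.18 (p = 0.0463), and without memantine HF-HI replicate 1 -0.21 (p = 0.111) and -0.14 (p = 0.133).

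Nr4a1, Junb and Arc had larger estimates and wider errors than the called genes. Nr4a1, an orphan nuclear receptor, had an interaction of -0.66 ± 0.342 (SE, p = 0.0609), Junb, a subunit of AP-1, -0.52 ± 0.280 (SE, p = 0.0701), and Arc, which acts in AMPA receptor endocytosis, -0.58 ± 0.351 (SE, p = 0.106). Egr1, a zinc finger factor, had -0.20 ± 0.266 (SE, p = 0.457), and none of the 4 passed. Arc at chr15:74669081-74672570 ran from 1874 to 4537 in saline sham libraries (median 2431), from 1704 to 6289 in saline HF-HI libraries (median 4984), from 1611 to 6551 in memantine sham libraries (median 3638) and from 1540.5 to 4677 in memantine HF-HI libraries (median 3903). Each group therefore held both low and high libraries, and the groups overlapped.

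**Figure D3:**
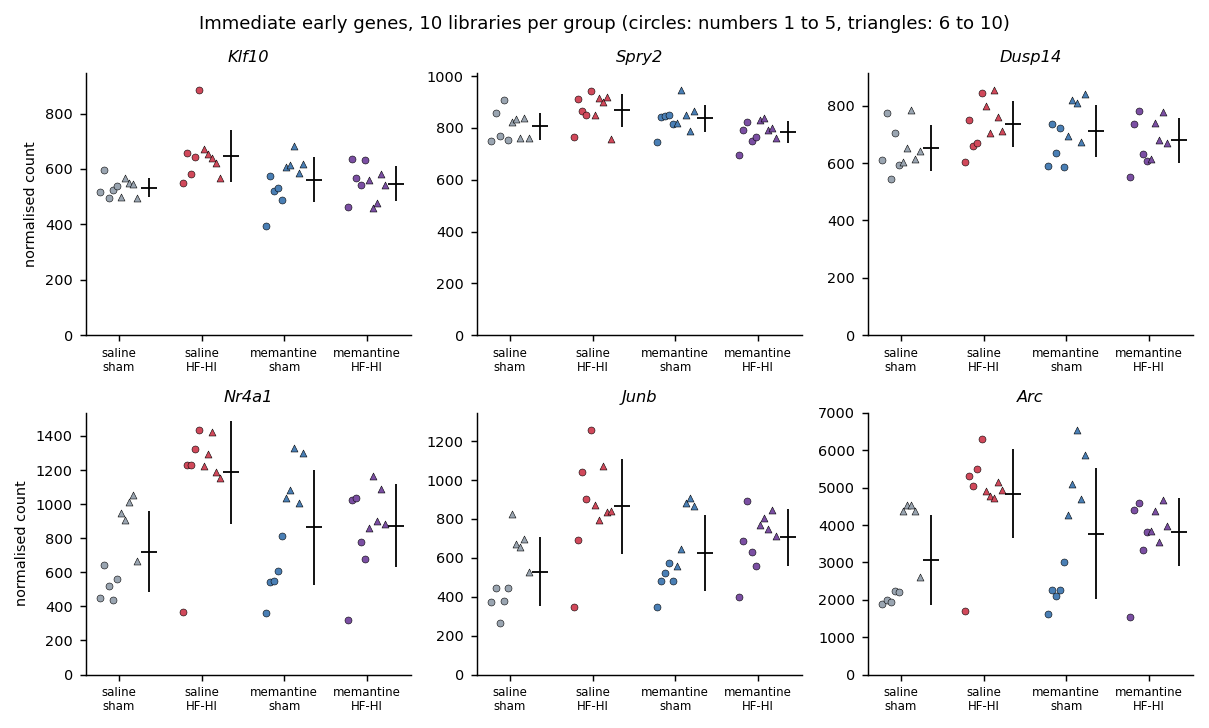
Normalised counts of 6 immediate early genes in each library of the 4 groups, with circles for libraries numbered 1 to 5, triangles for 6 to 10 and the mean with SD beside each group. For Nr4a1 and Arc the HF-HI library numbered 1 lies alone at the bottom of both HF-HI groups, and the 2 sham groups split by library number.

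Values of these genes differed with the library number. The library numbered 1 had the lowest Arc count of its group in all 4 groups, at 1874, 1704, 1611 and 1540 in saline (sham, HF-HI) and memantine (sham, HF-HI) libraries. In saline sham, Arc was 1874 to 2239 in libraries 1 to 5 and 2623 to 4537 in libraries 6 to 10, and in memantine sham it was 1611 to 3014 and 4262 to 6551, so the sets did not overlap in either sham group. They did overlap in both HF-HI groups. Libraries 6 to 10 were contrasted with 1 to 5 over all 5875 gene sums (limma, 1 fit over 8 cells). At an adjusted p under 0.1, 85 were called in saline sham, 12 in memantine sham and 0 in each HF-HI group. At an unadjusted p under 0.05, 646 (11%) were called in saline sham and 311 (5.29%) in memantine sham. In saline HF-HI 246 (4.19%) were called and in memantine HF-HI 204 (3.47%). The division at 5 was chosen after the values of Arc were seen.

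Estimates of the interaction within each set of numbers were negative for these reporters in both. Arc was -0.50 (p = 0.268) in libraries numbered 1 to 5 and -0.66 (p = 0.00274) in libraries numbered 6 to 10, Nr4a1 was -0.62 (p = 0.221) in libraries numbered 1 to 5 and -0.70 (p = 0.000551) in libraries numbered 6 to 10, and Klf10 was -0.11 (p = 0.535) in libraries numbered 1 to 5 and -0.49 (p = 0.000110) in libraries numbered 6 to 10. The parts of it differed: the impact change of Arc was 1.09 under saline and 0.59 under memantine in the first set, and 0.29 and -0.37 in the second. Of the 21 genes, 1 passed and 12 were negative in libraries 1 to 5, where 2.35% of all gene sums passed, and 7 passed and 21 were negative in libraries 6 to 10, where 7.25% did. The test of the difference between the sets gave a p of 0.0634 for Klf10, 0.759 for Arc and 0.880 for Nr4a1, and 0 of the 21 passed it.

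Single libraries decided how many immediate early genes passed. Saline HF-HI replicate 1 had the lowest count of its group in 13 of the 21. Without it, 9 passed, all lower, where 332 of all 5875 gene sums did (5.65%). Nr4a1 was then -0.84 (p = 0.00877), Junb -0.66 (p = 0.0125), Arc -0.74 (p = 0.0279) and Egr1 -0.31 (p = 0.233). Without memantine HF-HI replicate 1, 2 passed, where 174 of all gene sums did. Nr4a1 was then -0.51 (p = 0.117), Junb -0.43 (p = 0.122), Arc -0.44 (p = 0.193) and Egr1 -0.084 (p = 0.735). Without both, 6 passed, where 266 of all gene sums did. Nr4a1 was then -0.69 (p = 0.0154), Junb -0.57 (p = 0.0235), Arc -0.60 (p = 0.0529) and Egr1 -0.19 (p = 0.414). With a term for numbers over 5, 7 passed, where 216 of all gene sums did. With the deposited transformation in place of log2, 5 passed, where 212 of all gene sums did. Over the 40 fits that leave out 1 library the count ran from 2 to 9, and the count over all gene sums from 170 to 332. None of these genes passed the adjusted threshold in any of these fits.

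**Figure D4:**
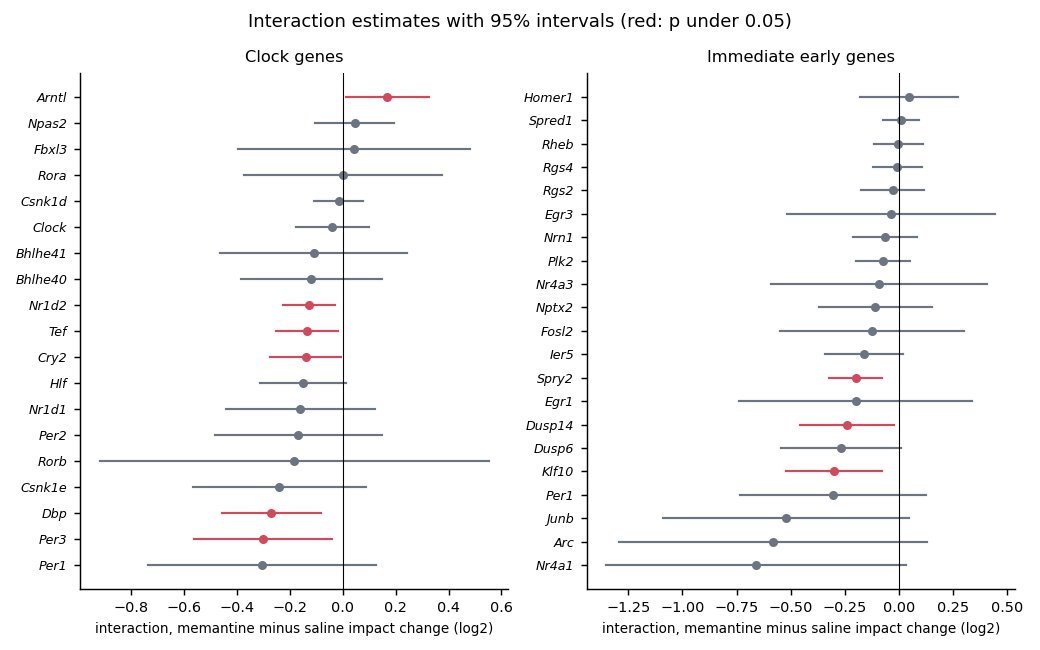
Interaction estimates (points) with 95% intervals (lines) in log2 units for the 19 measured clock genes and the 21 measured immediate early genes, red where p is under 0.05. Most points lie below 0, and the intervals of the most variable genes, such as Nr4a1 and Arc, are the widest.

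Of the genes of the drug target itself, the 5 measured of 7 NMDA receptor subunit genes all missed p under 0.05. The obligatory subunit Grin1 spanned 5384 to 6334 (median 5619) in saline sham, 5057 to 6231 (median 5939) in saline HF-HI, 5308 to 6959 (median 5886) in memantine sham and 5303 to 6927 (median 5849) in memantine HF-HI, with an interaction of -0.034 ± 0.0645 (SE, p = 0.599). The groups covered nearly the same range. Grin2a and Grin2b, the main forebrain modulatory subunits, had interactions of -0.041 ± 0.0623 (SE, p = 0.513) and 0.016 ± 0.0454 (SE, p = 0.732), with 95% intervals of -0.17 to 0.085 and -0.076 to 0.11. Grin3a had the highest estimate at 0.32 ± 0.193 (SE, p = 0.110). Levels of transcript say nothing about receptor block, which was not measured.

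Other synaptic genes mostly missed the threshold too. None of 9 AMPA receptor subunit and partner genes, 7 kainate and metabotropic glutamate receptor genes, 25 postsynaptic scaffolds or 33 presynaptic release genes reached p under 0.05, with medians of 0.0039, -0.0096, -0.0011 and -0.0090. The AMPA subunit Gria1 came nearest to the threshold among AMPA genes at 0.11 ± 0.0608 (SE, p = 0.0709), and reached 0.14 (p = 0.0144) without saline HF-HI replicate 1. Of 26 genes that signal downstream of NMDA receptors, 1 passed, close to the share over all gene sums (3.59%): Camk2g, a calcium/calmodulin kinase II subunit, at -0.13 ± 0.0503 (SE, p = 0.0154). Of 13 GABA receptor subunit genes 1 passed, Gabra2, at 0.16 ± 0.0612 (SE, p = 0.0141), and nothing is read from either count. Camk2g lost its call in libraries numbered 1 to 5, and so did Gabra2. Camk2g was lowest and Gabra2 highest in saline sham, with medians of 4800.2, 5295, 5197 and 5209 for Camk2g in saline (sham, HF-HI) and memantine (sham, HF-HI) libraries, and medians of 1556, 1390, 1407 and 1409 for Gabra2.

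Injection and handling can raise corticosterone, so glucocorticoid-responsive genes were examined too. Of 11 measured of 16, 1 passed (over all gene sums, 3.59%). This was Nr3c1, the glucocorticoid receptor gene, which spanned 3464 to 4000.4 (median 3673) in saline sham, 3843 to 4569.8 (median 4046) in saline HF-HI, 3749 to 4355 (median 3860.3) in memantine sham and 3485 to 4225 (median 4068) in memantine HF-HI, with an interaction of -0.12 ± 0.0465 (SE, p = 0.0111). Saline sham was the lowest group by the median, and all groups overlapped. Fkbp5, a chaperone induced by the receptor, had an interaction of 0.30 ± 0.157 (SE, p = 0.0634) in the other direction, which did not pass. The median of the list was -0.0018, and nothing is read from the count of 1.

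The 10 gene sums with the smallest p on the negative side were Ank, Dnajc6, Spry2, Rufy1, Cntrl, Csrnp2, Aars, Dbp, Ppp5c and Id2. They had small effects measured with small errors. Ank, a transmembrane protein in pyrophosphate export at chr15:27466677-27594909, had the smallest p of all. Its counts ran from 3278 to 3628 in saline sham libraries (median 3414), from 3366 to 3821 in saline HF-HI libraries (median 3643), from 3321 to 3845 in memantine sham libraries (median 3641) and from 3248 to 3679.9 in memantine HF-HI libraries (median 3546). Saline sham was lowest by the median, and all groups overlapped. The impact change was 0.072 in saline mice and -0.052 in memantine mice, and the interaction was -0.12 ± 0.0351 (SE, p = 0.00115) with a permutation p of 0.000740. Dnajc6, which encodes the clathrin-uncoating factor auxilin, had medians of 8489, 9062, 8849.7 and 8713 and an interaction of -0.13 ± 0.0398 (SE, p = 0.00170). Rufy1, an endosomal Rab effector, had -0.19 ± 0.0581 (SE, p = 0.00220), and Id2, an inhibitor of helix-loop-helix factors, -0.17 ± 0.0589 (SE, p = 0.00750). Cntrl, a centriolar protein, had -0.17 (p = 0.00419), Csrnp2, a nuclear protein, -0.19 (p = 0.00465), the alanyl-tRNA synthetase Aars -0.091 (p = 0.00563) and the phosphatase Ppp5c -0.12 (p = 0.00676).

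On the positive side the 10 were Fam120c, Lrrtm4, Yipf5, Myef2, Sf3b3, Dhx40, Cnot1, Man1b1, Thsd7a and Ints4. The group with the highest median was saline sham in 6 of them and memantine HF-HI in the other 4. Lrrtm4, a postsynaptic adhesion protein of excitatory synapses, spanned 567 to 948 (median 798) in saline sham, 417 to 899 (median 630.3) in saline HF-HI, 470 to 790.1 (median 613) in memantine sham and 567 to 996 (median 692) in memantine HF-HI. Its impact change was -0.35 in saline mice and 0.20 in memantine mice, and the interaction was 0.55 ± 0.167 (SE, p = 0.00212). Myef2, a repressor of myelin gene transcription, had the largest estimate of the 10 at 0.65 ± 0.210 (SE, p = 0.00379), with medians of 941, 838, 722 and 849 in saline (sham, HF-HI) and memantine (sham, HF-HI) libraries. Fam120c had 0.13 ± 0.0382 (SE, p = 0.00175). Sf3b3 of the spliceosome had 0.10 (p = 0.00389), the helicase Dhx40 0.17 (p = 0.00677), Cnot1, the scaffold of the CCR4-NOT deadenylase, 0.13 (p = 0.00771), and Ints4 of the Integrator complex 0.15 (p = 0.00866). The remaining 3 were Yipf5 of the Golgi at 0.18 (p = 0.00377), the mannosidase Man1b1 at 0.099 (p = 0.00806) and the thrombospondin-repeat protein Thsd7a at 0.20 (p = 0.00846). Permutation p-values of the 20 gene sums ran from 0.00038 to 0.00761. The 20 were chosen for small p in the same contrast and libraries. Small permutation p-values are therefore built in, they are unadjusted, and nothing is read from them.

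Transcripts of one gene can trade reads with each other, and gene sums do not depend on that trade. Of the 255 called transcripts, 71 came from genes with several transcripts in the table (27.8%, against 24.5% of all transcripts), and these belonged to 63 genes, of which 7 were called as a sum. For a gene with 1 transcript in the table, the sum is that same count on another log scale. That 181 of the 184 called transcripts of such genes were also called as a sum is therefore built in, and nothing is read from it. Among the 40 transcripts with the largest estimates, 29 (72.5%) came from genes with several transcripts.

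Tef had 2 transcripts with interactions of opposite sign, and NM_153484 was among the 5 with the smallest p on the negative side. NM_153484 spanned 2023 to 5748 (median 4794) in saline sham, 3677 to 6063 (median 5433) in saline HF-HI, 5093 to 7297 (median 6328) in memantine sham and 2872 to 6437 (median 5303) in memantine HF-HI, and it had an interaction of -0.45 ± 0.129 (SE, p = 0.00130) on the deposited scale. NM_017376 spanned 982 to 4266 (median 1644) in saline sham, 1035 to 3021 (median 1354) in saline HF-HI, 989 to 2148 (median 1166) in memantine sham and 1119 to 4936 (median 2155) in memantine HF-HI, with an interaction of 0.53 ± 0.191 (SE, p = 0.00893). The transcript that was highest in memantine sham was thus paired with one that was lowest there, and the sum had only -0.13 on the log2 count scale. The 2 transcripts have different starts in GENCODE, at 81802421 for the partner of NM_153484 and 81811414 for that of NM_017376 on chromosome 15, and the second is the downstream start whose window is printed above. The first matches no printed window. It lies at -252 bases from the start used for the upstream window, just outside that window, so the E-box there lies downstream of it. Clasp1, a microtubule plus-end protein, had -0.37 ± 0.109 (SE, p = 0.00150) for NM_001293301, with medians of 565, 639, 813 and 572 in saline (sham, HF-HI) and memantine (sham, HF-HI) libraries, and 0.065 ± 0.0768 (SE, p = 0.402) for NM_001293300, while its sum had -0.012 (p = 0.692).

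**Figure D5:**
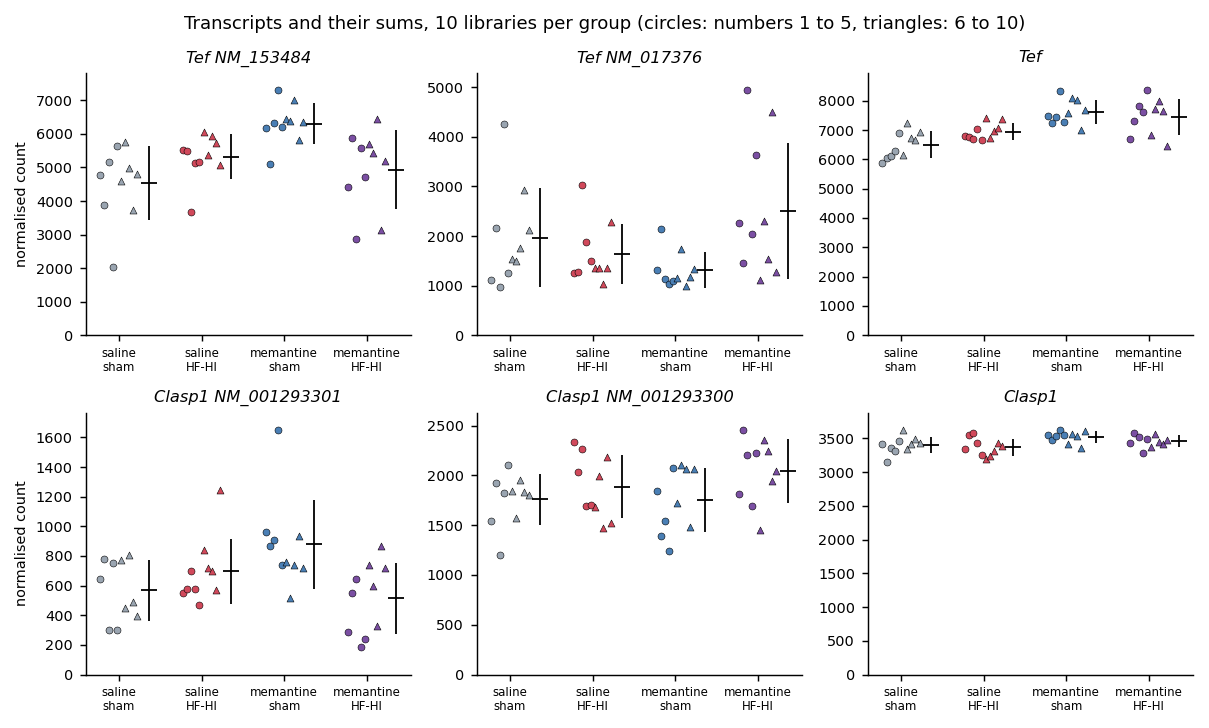
Normalised counts of 2 transcripts each of Tef and Clasp1 and of the gene sums over all listed transcripts, in each library of the 4 groups, with circles for libraries numbered 1 to 5, triangles for 6 to 10 and the mean with SD beside each group. The Tef transcripts move in opposite directions between groups, and the Clasp1 sum stays between 3159 and 3631.

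The other transcripts with the smallest p included Picalm NM_001252521, from a clathrin assembly gene, at 0.089 ± 0.0260 (SE, p = 0.00156) and Gphn NM_145965, from the gephyrin gene of inhibitory synapses, at 0.15 ± 0.0485 (SE, p = 0.00408), whose sums had 0.079 (p = 0.123) and 0.064 (p = 0.143). The remaining 6 of the 10 were the single transcripts of Ank, Spry2, Rufy1, Fam120c, Lrrtm4 and Myef2.

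The 3 largest estimates in each direction among transcripts with p under 0.05 came with wide errors. Slc1a2 NM_001077515, a minor form of the astrocytic glutamate transporter gene GLT-1, spanned 276 to 4412 (median 509) in saline sham, 38.5 to 6734 (median 2372) in saline HF-HI, 128 to 9625 (median 2141) in memantine sham and 27.6 to 5341 (median 1688) in memantine HF-HI and had -1.01 ± 0.478 (SE, p = 0.0408), while the Slc1a2 sum had -0.042 (p = 0.246). Sirpa NM_001177647 had 0.55 ± 0.249 (SE, p = 0.0347) and Rapgef2 NM_001310536 -0.69 ± 0.285 (SE, p = 0.0213), and their sums had -0.072 (p = 0.204) and 0.024 (p = 0.606). The lowest counts of these transcripts were 122 and 167, and the other Rapgef2 transcript, NM_001099624, had 0.43 ± 0.167 (SE, p = 0.0133) in the opposite direction. Rps27 NM_027015, a ribosomal protein transcript with near-identical copies in the genome, spanned 4.96 to 1821 (median 1674) in saline sham, 7.19 to 1939.9 (median 1646) in saline HF-HI, 1429 to 1783 (median 1673) in memantine sham and 5.46 to 1801 (median 1633) in memantine HF-HI. The group medians lay between 1633 and 1674 and 3 groups held libraries near 0, so its value of -0.72 ± 0.341 (SE, p = 0.0426) is uncertain. Cep250 was at 0 in 5 libraries and had 0.54 ± 0.234 (SE, p = 0.0268), and NM_001290562, which has no symbol in the tables used, had 0.63 ± 0.229 (SE, p = 0.00945) with a lowest count of 40.5. With weights from a mean-variance trend (voom), p was 0.05 or more for all 6.

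Genes with a firm impact response were set side by side in the 2 drug arms. In saline mice 21 gene sums passed the adjusted threshold (0.357%), 15 up and 6 down, and in memantine mice 1 passed (0.017%). That gene was C4b, a complement component of reactive glia, which spanned 479 to 692 (median 546) in saline sham, 627 to 823 (median 679) in saline HF-HI, 424 to 535 (median 475) in memantine sham and 557 to 878 (median 654) in memantine HF-HI. HF-HI libraries of C4b lay above sham libraries in both arms by the median, with changes of 0.33 in saline mice and 0.47 in memantine mice and an interaction of 0.14 ± 0.0927 (SE, p = 0.145), 95% interval -0.050 to 0.33. Gfap, the astrocyte filament gene, had impact differences of 0.29 in saline mice and 0.45 in memantine mice, with an interaction of 0.15 ± 0.152 (SE, p = 0.319). Neither interaction passed.

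Of the 21, 20 had the same sign in memantine mice and 7 had p under 0.05 there. The median change of the 21 in the saline direction was 0.19 log2 units in saline mice and 0.047 in memantine mice. Their interaction had p under 0.05 in 13 (over all gene sums, 3.59%). The saline libraries that selected these genes also enter the interaction, and selection raises the saline estimate, so nothing is read from the count. The 95% interval of the memantine change held 0 but not the saline estimate in 14, and the saline estimate but not 0 in 3. That split carries the same selection and leaves out the error of the saline estimate, so nothing is read from it either. Named after their values were seen, Cc2d2a, a ciliary protein gene, had differences of 0.19 in saline mice and 0.067 in memantine mice and an interaction of -0.13 (p = 0.00991), and Slc16a1, a monocarboxylate transporter gene, had 0.28 in saline mice and 0.070 in memantine mice with -0.21 (p = 0.00960).

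No cell type marker had an interaction at p under 0.05. This held for all 15 astrocyte, 8 microglial and complement, 15 oligodendrocyte, 6 endothelial and mural, 14 striatal, 8 thalamic, 3 hippocampal and 13 cortical neuron markers and for the 1 choroid plexus marker measured, and no blood marker was in the table. Striatal markers leaned positive in 12 of 14 with a median of 0.15, and cortical neuron markers leaned negative in 12 of 13 with a median of -0.091. The impact change in saline mice had p under 0.05 in 9 of the 14 striatal markers (over all gene sums, 10.7%). In memantine mice it did in 0 of them (over all gene sums, 4.37%). Of the 13 cortical neuron markers, 1 had p under 0.05 for impact in saline mice and 0 in memantine mice. The median summed striatal count was 61543, 53306, 60511 and 59901 in saline (sham, HF-HI) and memantine (sham, HF-HI) libraries, over a range of 43182 to 69104. With the striatal marker mean as a covariate, 165 gene sums had p under 0.05, of which 134 were among the 211, and 5 clock and 2 immediate early genes passed. The share of tissue from each region was not measured.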

How the data were processed

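Cortical RNA of 40 mice (10 per group) was sequenced. The deposited values are log2-scale counts per RefSeq transcript after the variance-stabilising transformation of DESeq2, made by the authors. The paper names STAR and eXpress, and the submitters' processing notes name HISAT2, StringTie and build mm10, so which tools made the table is uncertain. From its floor of 10.36 the transformation was undone, which gave whole numbers of reads once size factors (0.859 to 1.14) were removed (all values under 5000, tolerance 0.05). These normalised counts were summed per symbol (6805 of 6831 transcripts matched the deposited IDs to RefSeq names), and the 26 others were kept alone.

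The interaction was tested with limma 3.58.1 (R 4.3.3; lmFit, contrasts.fit, eBayes with trend, a term per group) on the deposited log2 values of transcripts and on log2 of gene sums plus 1. The study used a count model. Here the deposited values were tested on their log2 scale, and voom weights on the recovered counts were an alternative. Benjamini-Hochberg adjustment ran over all features. Single genes were checked by permuting residuals of the additive model (100000 resamples). The fit was tested on simulated data. Named genes were the 10 gene sums and 5 transcripts with the smallest p in each direction, the 3 largest transcripts in each direction with p under 0.05, members of the receptor, immediate early, clock and glucocorticoid lists, members of other lists with p under 0.05, C4b and Gfap. The genes named for their saline response were added later. The comparison, members and 22 gene lists were chosen with earlier results of these data known.

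Recovered reads over the listed transcripts numbered 13322404 to 17529644 per library, and group means rest on 10 animals. Nothing in the labels pairs the libraries across groups, and where separate animals are not stated p-values measure the spread between samples only. Positions are from RefSeq GRCm38.p6, which is mm10. Alternatives are listed with their effects in the closing section.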

Additional observations from a re-analysis of the deposited data

Results flagged for a closer look

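In each group of 10 libraries, 1 library was looked at more closely where the gap between the extreme library and the next exceeded the 95% critical share of the group's range in Dixon's test, on the log2 scale. Over the reported genes and transcripts this was checked in 228 groups, and 31 passed, where chance gives about 1 in 20, or 11.4. The interaction itself flagged no gene, since none passed the adjusted threshold. Saline HF-HI replicate 1 was the lowest of its group, with the next library's normalised count in parentheses, for Cry2 at 2164 (next 2542), Nr4a1 at 369.9 (next 1151), Junb at 345 (next 692), Arc at 1704 (next 4728), Dusp6 at 942 (next 1325), Egr1 at 1385 (next 2456), Hlf at 3439 (next 3937), Per1 at 764 (next 1284) and Per2 at 862 (next 1327), and the highest for Gria1 at 9816 (next 8578). Memantine HF-HI replicate 1 was the lowest of its group, with the next library's normalised count in parentheses, for Nr4a1 at 322 (next 677), Arc at 1540 (next 3341), Egr1 at 1167 (next 2108), Per1 at 789.7 (next 1241) and Per2 at 1034 (next 1449). Saline HF-HI replicate 5 was the lowest of its group, with the next library's normalised count in parentheses, for Slc1a2 (NM_001077515) at 38.5 (next 1164), and the highest for Klf10 at 884 (next 673) and Ier5 at 1531 (next 1295). Single lowest libraries were Nr1d1 in memantine sham replicate 9 at 679, Cep250 (NM_001130000) in saline sham replicate 7 at 79.3, Dbp in saline HF-HI replicate 8 at 818, Dnajc6 in saline sham replicate 5 at 7643, Dnajc6 in memantine HF-HI replicate 9 at 7390, Gphn (NM_145965) in memantine HF-HI replicate 2 at 873, Tef (NM_153484) in saline sham replicate 4 at 2023, Tef (NM_153484) in saline HF-HI replicate 3 at 3677 and Rps27 (NM_027015) in saline HF-HI replicate 2 at 7.19. Single highest libraries were Nr3c1 in memantine sham replicate 9 at 4355, C4b in saline sham replicate 7 at 692, Fkbp5 in memantine HF-HI replicate 5 at 1618 and Clasp1 (NM_001293301) in memantine sham replicate 4 at 1652. The 2 HF-HI libraries numbered 1 were flagged together for Nr4a1, Arc, Egr1, Per1 and Per2, and values without each of them are given beside those genes in the report. What set them apart was not tested.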

How the results depend on the processing

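No alternative gave a gene sum or transcript at the adjusted threshold. The counts at an unadjusted p under 0.05 (211 gene sums, 255 transcripts) moved most with library weights (384 gene sums), a threshold of 0.01 (30 gene sums, 40 transcripts), only the features above the median abundance (87 and 111, of fewer tested), and, chosen after seeing the data, libraries numbered 1 to 5 (138 gene sums) or 6 to 10 (426 gene sums, 452 transcripts). Leaving out 1 library at a time gave 170 to 332 gene sums and 208 to 365 transcripts, both highest without saline HF-HI replicate 1. Correlations of same-number deviations ran from -0.226 to 0.277 over 60 pairs, with a mean of -0.0028. They cannot exclude structure shared by number in some genes, since they run over many genes at once. Of the 21 immediate early genes, 2 were lowest in number 1 of all 4 groups. A replicate block gave 223 gene sums and 265 transcripts, with 7 immediate early genes in place of 3. The sign turned for Gfap (-0.013) and Grin2a (0.041) in libraries 1 to 5 and for Grin2b in libraries 6 to 10 (-0.017) and without single libraries (-0.0058 to 0.030), none of them past the threshold in the main result. Of the 46 named features with p under 0.05, 39 kept it in all 40 fits that leave out 1 library, but only 5 kept it in all 17 other settings. Most losses were in the sets of 20 libraries numbered 1 to 5 or 6 to 10, and 37 kept it in every other setting that used both sets. The causes of these shifts were not tested.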

Other observations

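Per2, a clock repressor that is also activity-responsive, was split by library number in the sham groups as Arc was. In saline sham its normalised count was 970.1 to 1024 in libraries 1 to 5 and 1235 to 1624 in libraries 6 to 10, and in memantine sham it was 1164 to 1571 and 1642 to 1908. The sets did not overlap in either group. In saline HF-HI the ranges were 862 to 1578 and 1346 to 1443, and in memantine HF-HI 1034 to 1699 and 1449 to 1711, with the library numbered 1 the lowest in both. Dbp, the output gene with the smallest interaction p, overlapped between the sets in all 4 groups. The number contrast reached p under 0.05 in 9 of 21 immediate early genes in saline sham and 13 of 21 in memantine sham, against 11% and 5.29% of all gene sums, and in 0 and 2 in saline and memantine HF-HI. The position of the division was chosen from these values, so the counts are a description.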
